A study of Homo sapiens with 6 samples.

Results

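The JNK and p38 genes encode the stress-activated kinases of the MAPK family and the kinases directly above them. The 10 genes described here are the JNK genes MAPK8, MAPK9 and MAPK10, the p38 genes MAPK11, MAPK12 and MAPK14, and the activating kinases MAP2K3, MAP2K4, MAP2K6 and MAP2K7. They were chosen by name, and each symbol matched 1 Ensembl identifier among the 61496 features of the deposited tables. All 10 passed the filter on low counts and were tested. A further p38 gene, MAPK13, is no member and is described with the pathway genes.

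The samples were 6 libraries of U251, an established human glioma cell line. A total of 3 libraries came from untreated control cells and 3 from cells exposed to sevoflurane (Sev), a volatile anesthetic, for 2 h. Concentrations of 5.1%, 3.4% and 1.7% are listed in the labels without naming a library for each, and the legend that describes the RNA profiling gives 5.1% Sev. U251 is 1 cell line. Independent experiments are stated in general terms for the quantitative data, but not for the sequenced libraries in particular, so p-values measure the spread between these libraries, which may be technical if they share a culture.

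JNK and p38 respond to stress such as osmotic shock, oxidants, ultraviolet light and inflammatory cytokines. In each arm, a MAP3K phosphorylates a MAP2K, which then phosphorylates the JNK or p38 kinase on a threonine and a tyrosine of its activation loop. MAP2K3 and MAP2K6 act on p38, and MAP2K4 and MAP2K7 act on JNK, with MAP2K4 able to act on p38 as well. The libraries measured mRNA, which does not show how much of a kinase was phosphorylated.

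Libraries held between 38624292 and 46318311 counts. On the first principal component, with 69% of the variance, Sev and control libraries lay apart. All 8 astroglial and glioma markers were tested. VIM was between 5123 and 6497 CPM, and GFAP between 201 and 373 CPM. In Sev, CD44 rose, and S100B, SOX2 and OLIG2 fell. Markers of other cell types were low. Their summed levels were between 16.8 and 25.2 CPM for the 4 neuron markers, between 2.45 and 6.51 CPM for the 3 oligodendrocyte markers, between 6.11 and 13.3 CPM for the 4 microglia and immune markers, and between 7.12 and 10.4 CPM for the 3 endothelial markers. In each of these lists 1 marker rose in Sev, namely SYT1, MBP, CSF1R and PECAM1, and none fell. AIF1 had 0 counts in every library. The part of these shifts in the results below was not tested.

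CPM is the count relative to the library total after edgeR's TMM scaling, and values are mean ± SD with n = 3 unless each library is given. A gene was called when its Benjamini-Hochberg adjusted p-value over all 27514 tested features, from edgeR's quasi-likelihood test, was under 0.05. Of the 10 kinase genes, MAP2K3, MAPK11 and MAP2K7 rose and MAPK12 and MAPK10 fell after Sev. Among all tested features 22.1% were called higher and 21.5% lower, 43.7% together, so 5 called genes of 10 is near the background share. The study's own threshold asked for a change of more than 1 on the log2 scale and a p-value below 0.05 before adjustment. MAP2K3 was the 1 gene of the 10 that passed it, in a direction in which 11.4% of all features and 9.07% of protein-coding genes passed. None of the 10 passed in the lower direction, where 12% of all features did. The median log2 fold change was 0.030 over the 10 genes and −0.0056 over all tested features. In CPM the groups did not overlap for 3 genes that were higher and 3 that were lower in Sev, against 28.3% and 28.2% of all tested features. The 6 together compare with 56.5% of all features and 57.8% of protein-coding genes. By tier, 2 of the 4 MAP2K genes rose, 1 of the 3 p38 genes rose and 1 fell, and 1 of the 3 JNK genes fell.

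**Figure D1:**
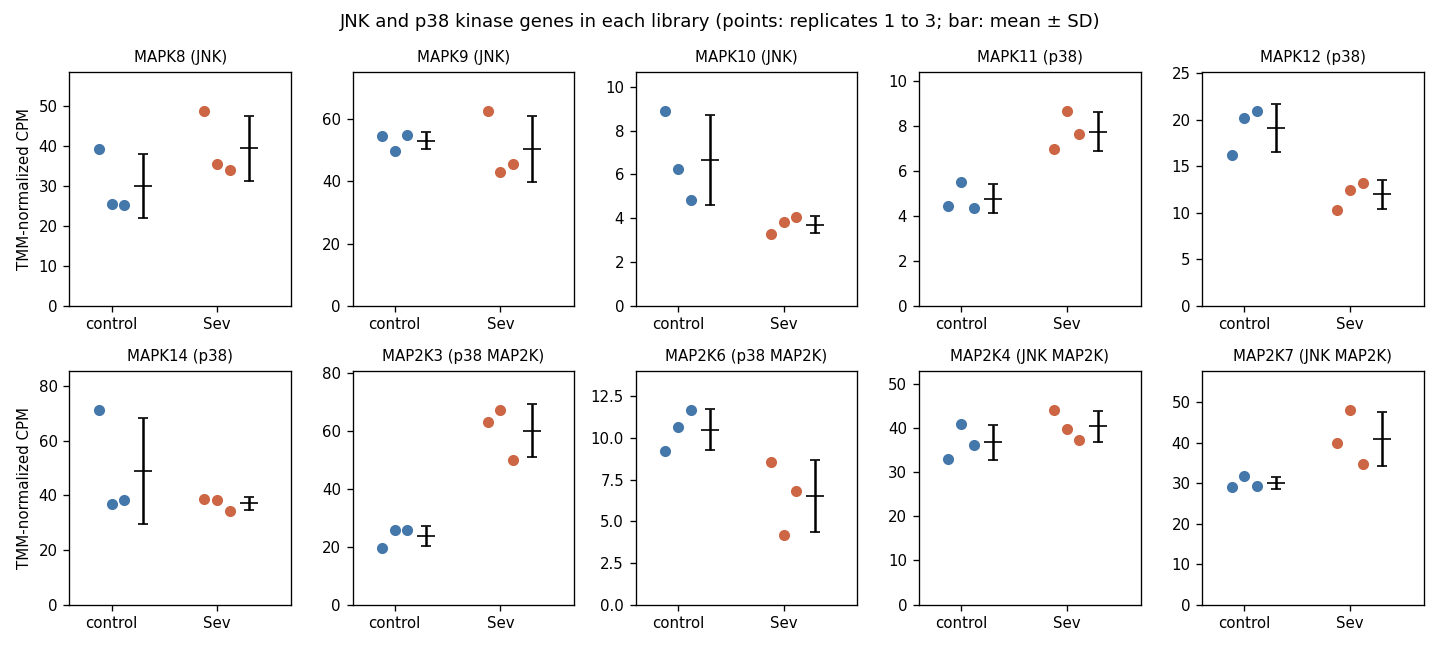
TMM-normalized CPM of the 10 kinase genes in each of the 3 control (blue) and 3 Sev (orange) libraries, with replicates 1 to 3 from left to right and the mean ± SD beside them; each panel has its own axis from 0. MAP2K3 lies between 49.8 and 67.1 CPM in Sev against 19.6 to 25.6 CPM in control, and control 1 stands above the other controls for MAPK14 at 71.2 CPM.

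The sequences before the RefSeq starts of MAP2K3, MAPK11 and MAPK12 are shown because these 3 genes kept their calls in every alternative setting, and because MAPK11 and MAPK12 are neighbours that changed in opposite directions. The windows take the 250 bases upstream of the RefSeq start on GRCh38.p14, the first of 2 listed starts for MAP2K3, in the direction of transcription. Those of MAP2K3 and MAPK12 are printed to 241 and 138 bases, since longer GENCODE transcripts begin within them. The last 30 printed bases of each lie inside the GENCODE gene. The MAPK11 window lies wholly inside the GENCODE gene, whose outermost start is further upstream, and 13 of its bases are in the transcribed leader of a GENCODE transcript. Capitals mark matches on either strand to any of 5 motifs searched. These were the CRE motif TGACGTCA, bound by CREB and ATF factors, the AP-1 motif TGANTCA, bound by JUN and FOS factors, the C/EBP-ATF motif TGATGCAAT, the E-box CACGTG and the GC box GGGCGG.
MAP2K3 (chr17:21284461-21284701, plus strand): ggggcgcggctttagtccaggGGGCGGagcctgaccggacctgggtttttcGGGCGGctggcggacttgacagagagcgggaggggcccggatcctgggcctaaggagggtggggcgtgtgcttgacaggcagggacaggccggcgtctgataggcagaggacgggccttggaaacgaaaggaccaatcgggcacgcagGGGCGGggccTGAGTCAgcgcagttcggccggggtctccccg
MAPK11 (chr22:50270381-50270630, minus strand): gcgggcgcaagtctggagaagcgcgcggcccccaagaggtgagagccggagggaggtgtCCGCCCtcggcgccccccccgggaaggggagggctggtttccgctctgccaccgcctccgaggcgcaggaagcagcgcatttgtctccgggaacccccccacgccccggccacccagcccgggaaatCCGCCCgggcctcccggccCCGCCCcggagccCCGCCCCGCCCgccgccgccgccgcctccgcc
MAPK12 (chr22:50261796-50261933, minus strand): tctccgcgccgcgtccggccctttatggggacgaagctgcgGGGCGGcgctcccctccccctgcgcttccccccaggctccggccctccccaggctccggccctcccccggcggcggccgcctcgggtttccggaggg
The MAP2K3 window held 1 AP-1 match, which lies across the GENCODE gene start at 21284672, and 3 GC boxes. The MAPK11 window held 5 GC boxes, of which the last pair overlap by 1 base, and no match to the other motifs. The whole MAPK12 window held 1 E-box and 4 GC boxes, of which 1 GC box is in the printed stretch. Over all 35116 promoter windows of the same length, 6.57% held the AP-1 motif, 1.65% the CRE motif, 6.34% the E-box, 42.6% the GC box and 0.216% the C/EBP-ATF motif. The matches describe letters only, and binding was not measured.

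MAP2K3 (ENSG00000034152, chromosome 17, 21284672 to 21315240, plus strand, GENCODE 29 on GRCh38), the p38 activator also called MKK3, had the largest change of the 10 genes. It was at 19.6, 25.6 and 25.6 CPM in the control libraries and at 63.2, 67.1 and 49.8 CPM in the Sev libraries. Every Sev library lay above every control library. It rose 2.54-fold, or by 1.35 ± 0.15 (standard error) on the log2 scale (edgeR adjusted p = 0.000512). The call was kept in all 15 alternative settings, with log2 fold changes from 1.07 to 1.46. In a bulk library, more RNA per cell and more cells that express a gene cannot be told apart.

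MAP2K6 (ENSG00000108984, chromosome 17, 69414698 to 69553861) is the other p38 activator, and it was not called in either direction. It was at 9.20, 10.7 and 11.7 CPM in control and at 8.55, 4.21 and 6.79 CPM in Sev. The groups did not overlap, and Sev libraries were lower, but the log2 fold change of −0.69 (95% interval −1.26 to −0.12) had an adjusted p of 0.0543 in edgeR's test and was not called. It was called without Sev replicate 1, with a log2 fold change of −0.93 (edgeR adjusted p = 0.0279), by DESeq2 (adjusted p = 0.0285) and with scaling by library size alone (adjusted p = 0.0329). Without Sev replicate 2 the log2 fold change was −0.45 and was not called (adjusted p = 0.0790). ENSG00000278972 lies within MAP2K6 on the same strand, with 28, 30 and 33 counts in the control libraries and 0, 3 and 0 in the Sev libraries.

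MAP2K7 (ENSG00000076984, chromosome 19, 7903843 to 7914478), an activator of JNK, was at 29.2, 31.8 and 29.3 CPM in control and at 39.9, 48.1 and 34.8 CPM in Sev. All Sev libraries were higher, with Sev 2 well above the other two. The log2 fold change was 0.44, with a standard error of 0.13 (edgeR adjusted p = 0.0245). The call was near the limit. It was lost without control replicate 1 (adjusted p = 0.0802), control replicate 3 (0.0833), Sev replicate 1 (0.0587) or Sev replicate 2 (0.0517), with log2 fold changes from 0.32 to 0.55 across all 6 single-library omissions. Scaled by library size alone, it was also lost (log2 fold change 0.30, adjusted p = 0.0614).

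MAP2K4 (ENSG00000065559, chromosome 17, 12020824 to 12143830), which acts on JNK and can act on p38, was at 33.0, 41.0 and 36.3 CPM in control and at 44.1, 39.9 and 37.3 CPM in Sev. The groups overlapped. Its log2 fold change of 0.14 had a 95% interval from −0.12 to 0.40 (adjusted p = 0.354, edgeR), and it was −0.0031 with library size only. It was between 0.056 (without control replicate 1) and 0.22 (without control replicate 2) when single libraries were omitted, and 0.070 without Sev replicate 1. MAP2K4P1, a processed copy on the X chromosome, had 0 to 25 counts per library, against 1396 to 1762 for MAP2K4.

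Of the p38 genes, 1 rose, 1 fell and 1 was not called. MAPK11 (ENSG00000185386, chromosome 22, 50263713 to 50270767, minus strand), which encodes p38 beta, was at 4.44, 5.50 and 4.33 CPM in control and at 6.96, 8.65 and 7.62 CPM in Sev. The groups did not overlap, and it rose 1.63-fold, a log2 fold change of 0.70 with a standard error of 0.16 (edgeR adjusted p = 0.0102). Each library held 188 to 325 counts of it.

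MAPK12 (ENSG00000188130, chromosome 22, 50245450 to 50261825, minus strand) encodes p38 gamma, a form best known from muscle. It was at 16.2, 20.2 and 20.9 CPM in control and at 10.3, 12.4 and 13.3 CPM in Sev. Every Sev library was lower, and the gene fell 1.60-fold, a log2 fold change of −0.67 with a standard error of 0.15 (edgeR adjusted p = 0.00849). The calls of MAPK11 and MAPK12 were both kept in all 15 alternative settings.

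MAPK11 and MAPK12 are adjacent on the same strand, with 1887 bases and no other GENCODE gene between them. MAPK12 overlaps HDAC10, a deacetylase gene on the same strand, so reads of the shared part could belong to either. HDAC10 also fell, from 10.6 ± 0.804 to 7.36 ± 0.383 CPM (log2 fold change −0.53, edgeR adjusted p = 0.0114).

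MAPK14 (ENSG00000112062, chromosome 6, 36027677 to 36111236, plus strand) encodes p38 alpha, the form most widely expressed in tissues. It was at 71.2, 36.9 and 38.3 CPM in control and at 38.6, 38.3 and 34.3 CPM in Sev. Control 1 was far above the 5 other libraries, which lay close together. The log2 fold change was −0.40 (95% interval −0.96 to 0.16, adjusted p = 0.219, edgeR), and without control replicate 1 it was −0.029 (adjusted p = 0.843). A processed pseudogene on the opposite strand, ENSG00000237719, rose by 0.69 on the log2 scale, from 4.25 ± 0.296 to 6.83 ± 0.585 CPM (adjusted p = 0.00703, edgeR), and it is not stated whether counting used the strand.

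The JNK genes showed 1 fall and no call in the other direction. They were also labelled in the study's own heat map of these libraries, so their choice is not independent of the data. MAPK10 (ENSG00000109339, chromosome 4, 85990007 to 86594625, minus strand) encodes JNK3, known from neurons. It was at 8.89, 6.26 and 4.82 CPM in control and at 3.27, 3.83 and 4.04 CPM in Sev. The groups did not overlap, although control 3 was close to Sev 3. It fell 1.79-fold, a log2 fold change of −0.84 with a standard error of 0.24 (edgeR adjusted p = 0.0229). The call was lost without control replicate 1 (log2 fold change −0.59, adjusted p = 0.0617) and without Sev replicate 1 (−0.76, adjusted p = 0.0785), and also in the unfiltered FPKM fit (adjusted p = 0.132). With the replicate number as a block, the call was lost as well (−0.80, edgeR adjusted p = 0.0553).

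MAPK8 (ENSG00000107643, chromosome 10, 48306639 to 48439360), which encodes JNK1, was at 39.1, 25.4 and 25.3 CPM in control and at 48.7, 35.5 and 34.0 CPM in Sev. The groups overlapped through control 1. The log2 fold change was 0.39 (95% interval −0.087 to 0.88, adjusted p = 0.161, edgeR). Without control replicate 1 it was 0.62 and was called (adjusted p = 0.0342), while without Sev replicate 1 it was 0.21 (adjusted p = 0.455). It was 0.28 without control replicate 2 and also without control replicate 3. With the replicate number as a block it was 0.41 and was called (edgeR adjusted p = 0.0266).

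MAPK9 (ENSG00000050748, chromosome 5, 180233143 to 180292099), which encodes JNK2, was at 54.5, 49.8 and 54.9 CPM in control and at 62.5, 42.8 and 45.6 CPM in Sev. The Sev libraries lay on both sides of the control libraries. Its log2 fold change of −0.077 had a 95% interval from −0.41 to 0.26 (adjusted p = 0.696, edgeR), and it was 0.030 without Sev replicate 2 and −0.26 without Sev replicate 1.

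**Figure D2:**
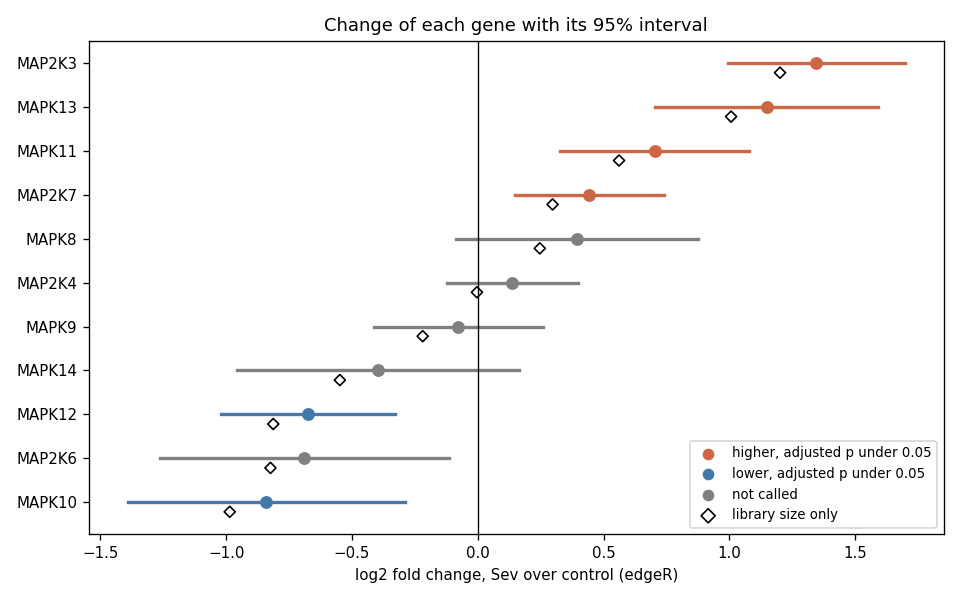
Log2 fold changes of the 10 kinase genes and MAPK13 in Sev against control (horizontal axis) from edgeR, as points with 95% intervals, coloured by call at an adjusted p under 0.05; open diamonds give the value scaled by library size only. The diamonds lie to the left of the points throughout, with MAP2K4 at −0.0031, and MAP2K3 has the largest value at 1.35.

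Levels of different genes were compared per length, as the deposited FPKM. For most features these values follow the counts divided by the summed length of annotated exons, so a gene with many long annotated exons gets a low FPKM. That length is 42646 bases for MAPK10 and 2688 for MAPK11. The ratio of the length implied by the FPKM to the exon length was 1.24 for MAPK11, as for the median feature, and 1.35 for MAPK10, which is outside the 5% tolerance used, so the FPKM of MAPK10 is somewhat lower than this relation gives. In control cells the order was MAPK14 (6.08 ± 2.56 FPKM), MAP2K4 (5.46 ± 0.487), MAP2K3 (5.30 ± 0.703), MAPK9 (5.04 ± 0.347) and MAP2K7 (4.96 ± 0.168), and neighbours in this order overlapped between libraries. The place of MAPK14 rests on control 1, at 9.03 FPKM, since in control 2 and control 3 it was the lowest of these 5 genes, at 4.48 and 4.72 FPKM. Next were MAPK8 at 2.63 ± 0.758 FPKM, MAPK12 at 1.74 ± 0.203, MAPK11 at 1.49 ± 0.178, MAP2K6 at 0.532 ± 0.0569 and MAPK10 at 0.123 ± 0.0426. Of these steps, only that from MAPK12 to MAPK11 was within the range of the libraries.

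In Sev-treated cells MAP2K3 came first, at 12.2 ± 1.50 FPKM, above every library of the next gene, MAP2K7 (6.10 ± 0.791 FPKM). MAP2K4 (5.43 ± 0.443 FPKM), MAPK9 (4.32 ± 0.943) and MAPK14 (4.15 ± 0.185) followed with overlapping ranges, and then MAPK8 at 3.12 ± 0.647 FPKM. MAPK11, at 2.21 ± 0.205 FPKM, now lay above MAPK12, at 0.982 ± 0.144, with no overlap between the libraries. MAP2K6 and MAPK10 remained lowest, at 0.299 ± 0.106 and 0.0607 ± 0.00864 FPKM.

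**Figure D3:**
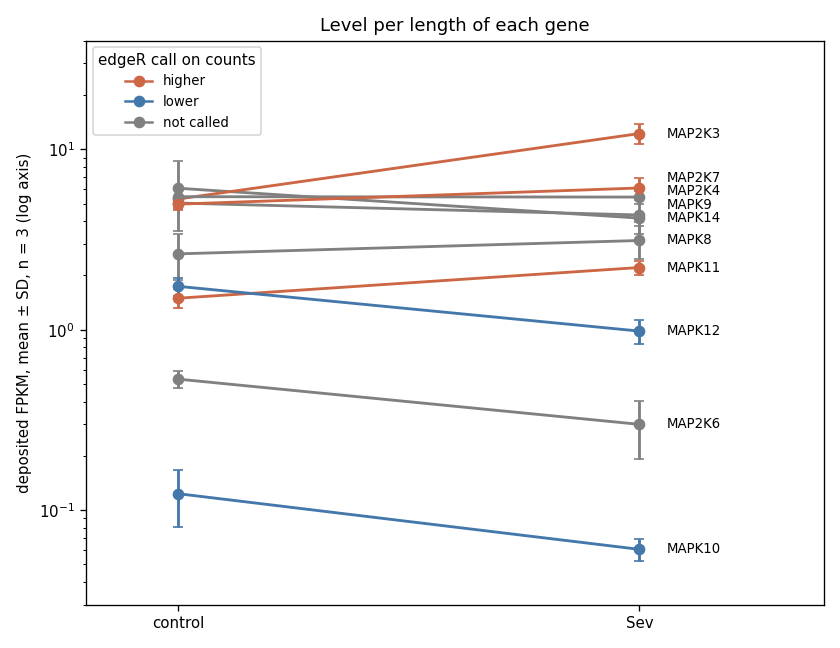
Deposited FPKM of each kinase gene in control and Sev, mean ± SD of 3 libraries, on a log axis, with lines joining the groups and coloured by the edgeR call on counts. MAP2K3 goes from 5.30 to 12.2 FPKM, and the lines of MAPK11 and MAPK12 cross.

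The make-up of each kinase family was taken as the share of every gene in the FPKM summed over its 3 paralogs. An exact two-sided permutation test of 3 libraries against 3 cannot give a p under 0.1, so none of these 6 shares could pass 0.05. MAPK11 made up 11.9%, 21.2% and 17.1% of the p38 sum in control and 27.8%, 31.8% and 30.7% in Sev (exact p = 0.1, adjusted over the 6 shares 0.15). All Sev libraries were above all control libraries. In counts without a length correction its share was 6.81 ± 1.97% in control and 13.6 ± 1.064% in Sev, a change of 6.81 percentage points in place of 13.3. MAPK12 made up 19.7 ± 6.14% in control and 13.4 ± 1.84% in Sev (exact permutation p = 0.3), and MAPK14 made up 63.6 ± 10.4% and 56.6 ± 3.49% (exact permutation p = 0.4). The control mean of MAPK14 rests on control 1, at 75.5% against 56.1% and 59.2%, and without control replicate 1 the change in share was −1.07 in place of −7.01 points. In counts without a length correction the MAPK14 share was 65.5 ± 10.4% in control and 65.3 ± 3.55% in Sev. With MAPK13 added to the p38 genes, MAPK13 was at 4.12 ± 0.320% of the sum in control and at 9.87 ± 1.62% in Sev.

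Of the JNK sum, MAPK9 made up 65.1 ± 5.43% in control and 57.5 ± 1.27% in Sev, MAPK8 33.4 ± 5.10% and 41.6 ± 1.27%, and MAPK10 1.56 ± 0.377% and 0.841 ± 0.245%. For each of these FPKM shares the groups did not overlap, which gives the smallest exact p the design allows, 0.1 (adjusted 0.15). In counts without a length correction the groups of MAPK9 overlapped, with 53.1% in control 1 against 52.2% to 54.6% in Sev (exact permutation p = 0.3), and the MAPK10 share was 7.34 ± 1.53% in control and 4.12 ± 1.10% in Sev. The sum itself was 7.79 ± 1.05 FPKM for JNK in control and 7.50 ± 1.57 in Sev (exact permutation p = 0.7). For p38 it was 9.31 ± 2.30 FPKM and 7.35 ± 0.184 (exact permutation p = 0.1), with control 1 at 11.96 FPKM and the other control libraries at 7.99 and 7.98 FPKM.

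**Figure D4:**
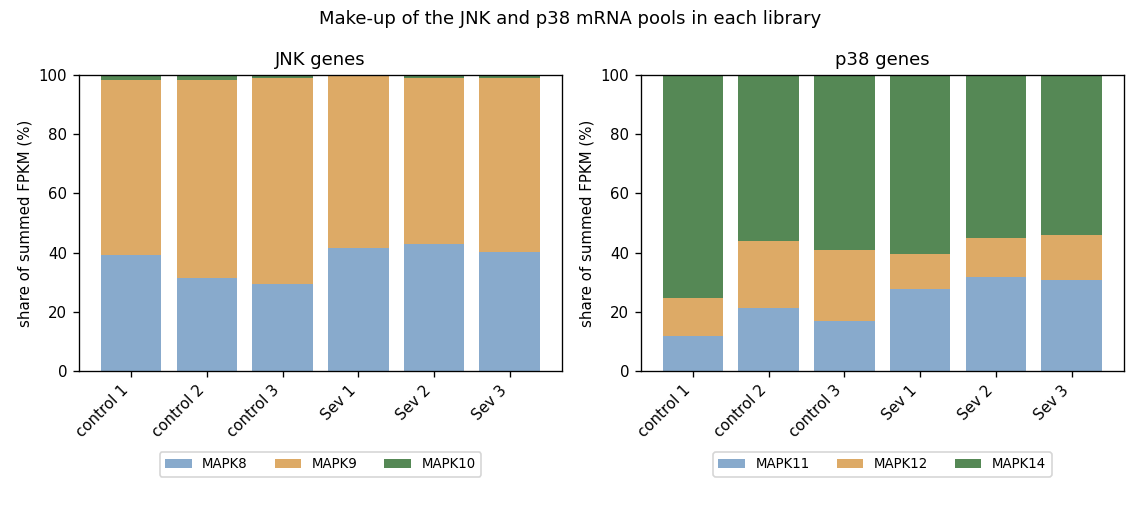
Share of each paralog in the FPKM summed over the 3 JNK genes (left) and the 3 p38 genes (right), in percent, with 1 bar per library. The MAPK11 part of the p38 bars is between 27.8% and 31.8% in Sev and between 11.9% and 21.2% in control.

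Around the 10 kinase genes, 93 pathway genes in 6 lists were described, of which 89 were tested, 31 were called higher and 13 lower. This is 49.4%, near the 43.7% of all features and the 45.9% of tested protein-coding genes, and no set test was run. The median log2 fold change was 0.16 over the 6 lists and 0.038 over protein-coding genes. With library size only, 24 were higher and 21 lower, and over all features this scaling turned 6094 higher and 5920 lower into 4665 and 7502, with a median shift of −0.14 in log2.

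The upstream kinases had 7 genes higher and 3 lower of 24 tested. This balance turned with the scaling, to 6 higher and 7 lower by library size alone and to 4 higher and 7 lower in the filtered FPKM fits. MAP3K2, a MAP2K activator also called MEKK2, rose from 147 ± 12.7 to 244 ± 7.25 CPM (log2 fold change 0.73). MAP3K5, the oxidant-sensing kinase ASK1, rose by 0.51 and MAP3K3 by 0.53 on the log2 scale. MAP3K12, the JNK-pathway kinase DLK, fell from 50.6 ± 4.62 to 25.9 ± 1.34 CPM (log2 fold change −0.96). TAOK2 and MAP4K2 also fell, with log2 fold changes of −0.33 and −0.40. The call of TAOK2 was lost without Sev replicate 1 (−0.30). That of MAP4K2 was lost without control replicates 1 or 3 (−0.42 and −0.32) or Sev replicates 1 or 3 (−0.36 and −0.32), and also with no filter on low counts (−0.41).

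The scaffolds and adaptors had 10 genes higher and 2 lower of 18 tested, with a median log2 fold change of 0.36. The share called was 66.7%, against 43.7% of all features and 45.9% of tested protein-coding genes, with no set test run. By library size alone 8 were higher and 3 lower. In the filtered FPKM fits 7 were higher and 3 lower, and in the unfiltered FPKM fit 6 were higher and 2 lower. GADD45A and GADD45B, which bind and activate the p38 and JNK kinase MAP3K4, rose most. GADD45A was at 24.6, 29.6 and 31.4 CPM in control and at 103, 117 and 88.2 CPM in Sev. GADD45B was at 26.9, 24.3 and 29.1 CPM in control and at 83.1, 114 and 95.03 CPM in Sev. Their log2 fold changes were 1.85 (adjusted p = 0.000117, edgeR) and 1.86 (adjusted p = 0.000112, edgeR), while GADD45G, with 3 to 28 counts, was not tested. SH3RF1, the JNK scaffold POSH, rose from 65.8 ± 3.12 to 139 ± 9.15 CPM (log2 fold change 1.08). CCM2, a p38 scaffold, and TAB1, a partner of the kinase TAK1, fell, with log2 fold changes of −0.63 and −0.38. Among the omissions of single libraries, the call of TAB1 was kept only without Sev replicate 2, and its log2 fold change was between −0.47 and −0.32 when single libraries were omitted. Without control replicates 1, 2 or 3 or Sev replicates 1 or 3, 1 gene of this list was therefore lower.

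Phosphatases that act on JNK or p38 had 5 genes higher and 2 lower of 15 tested. By library size alone 3 were higher and 3 lower, and in the filtered FPKM fits 3 were higher and 0 lower. DUSP4 rose from 74.7 ± 9.52 to 225 ± 60.9 CPM (log2 fold change 1.59) and DUSP16 from 84.3 ± 2.67 to 122 ± 11.9 CPM (0.53). DUSP2 went from 7 to 16 counts per library in control to 84 to 175 in Sev (log2 fold change 3.40). DUSP19 fell from 2.66 ± 0.386 to 0.741 ± 0.118 CPM (−1.84). PTPN7, with 9 to 36 counts per library, fell by 1.29 on the log2 scale, and lost its call without control replicate 1 (−1.05), Sev replicate 2 (−1.23) or Sev replicate 3 (−1.19), which left 1 lower gene. Without control replicates 2 or 3, 3 phosphatases were higher. DUSP1, the best known of the group, was at 220 ± 25.9 CPM in control and 232 ± 31.5 CPM in Sev and was not called (adjusted p = 0.654, edgeR).

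Of the 7 downstream kinases, 3 were higher and 1 lower, but 1 was higher and 2 lower by library size alone and in the filtered FPKM fits. MAPKAPK2, the p38 substrate MK2, was at 70.4, 73.5 and 72.8 CPM in control and at 122, 134 and 115 CPM in Sev. It rose 1.71-fold (log2 fold change 0.78, adjusted p = 0.000421, edgeR). MAPKAPK3, or MK3, rose by 0.35 on the log2 scale, a call lost in 4 of the 15 alternative settings, among them library size only (0.21). RPS6KA4, or MSK2, rose by 0.26 with an adjusted p of 0.0480 in edgeR's test, and lost its call without any 1 of the 6 libraries (0.25 to 0.28). MKNK1, which p38 can activate, fell by 0.55.

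Of 14 tested transcription factor substrates, 2 were higher and 2 lower, and the median log2 fold change was 0.00021. By library size alone 2 were higher and 3 lower. DDIT3, the stress factor CHOP and a p38 substrate, rose from 14.0 ± 1.74 to 29.3 ± 1.22 CPM (log2 fold change 1.07), and HSF1 by 0.56. CREB1 fell from 31.6 ± 3.96 to 16.8 ± 0.518 CPM (−0.91), and ATF2, a substrate of JNK and p38, from 55.6 ± 1.09 to 41.5 ± 1.34 CPM (−0.42). JUN, the substrate that named JNK, was at 596 ± 67.2 CPM in control and 589 ± 14.8 CPM in Sev (adjusted p = 0.889, edgeR).

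Among the 11 other MAPK and MAP2K genes, 4 rose and 3 fell. MAPK13, which encodes p38 delta and lies 16572 bases after MAPK14 with no gene between them, was at 4.02, 2.83 and 3.15 CPM in control and at 6.69, 6.81 and 8.66 CPM in Sev. It rose 2.22-fold (log2 fold change 1.15, standard error 0.19, adjusted p = 0.00255, edgeR), and the call was kept in all 15 alternative settings. MAPK6, which encodes ERK3, rose by 0.72 on the log2 scale. MAPK15 was called higher with 1 to 3 counts per library in control and 15 to 33 in Sev. The log2 fold change was −0.70 for MAP2K5, the activator of ERK5, and −1.52 for MAPK4, with 5 to 27 counts per library. MAPK4 lost its call without control replicate 3 (−1.44), where 1 gene of this list was lower.

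**Figure D5:**
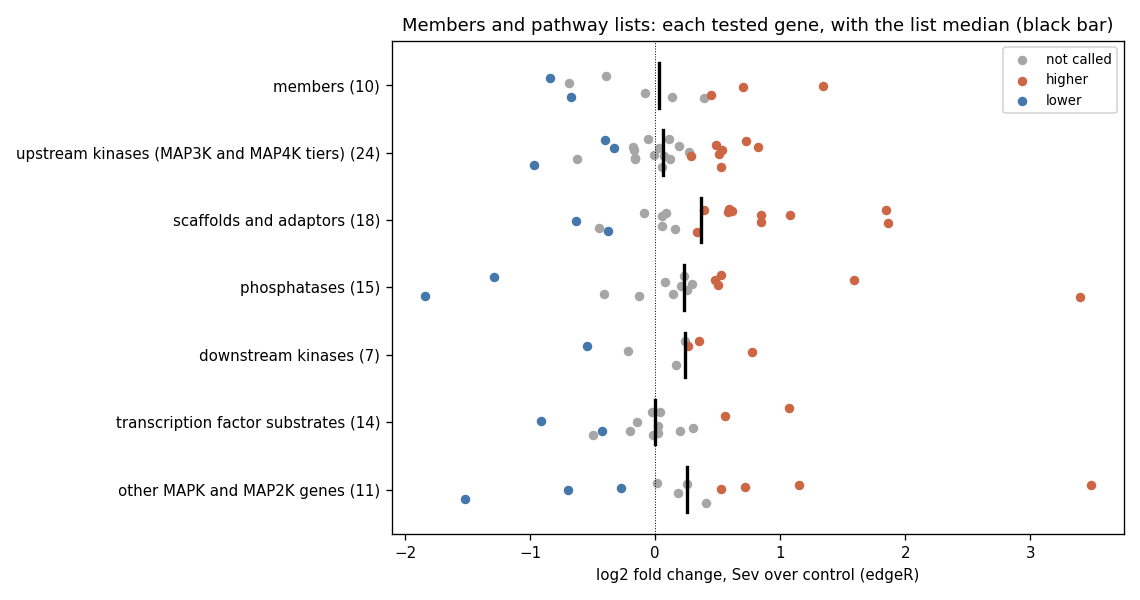
Log2 fold change in Sev against control (horizontal axis, edgeR) of every tested gene among the 10 kinase genes (members) and the 6 pathway lists, with the number tested in brackets; points are coloured by call, spread vertically for display, and a black bar marks each median. The 18 scaffolds and adaptors have a median of 0.36, and the 10 kinase genes lie on both sides of 0 with a median of 0.030.

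The genes most like MAP2K3 over the 6 libraries, by Pearson correlation of log2 CPM, were GLIS3 (r = 0.999), A3GALT2 (r = 0.999) and the assembled locus MSTRG.3555 (r = 0.999). Those most like MAPK12 were LIME1 (r = 0.999), MSTRG.14537 (r = 0.994) and FAM219B (r = 0.994). The 6 points fall into the 2 groups of the study, and 1902 of 27513 features had a correlation over 0.95 with MAP2K3 and 286 with MAPK12, so these values are a description only.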

How the data were processed

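Ribosomal RNA-depleted, strand-specific, paired-end libraries of 3 control and 3 Sev-treated U251 samples were used, and groups were taken from the sample titles. The authors deposited raw counts per gene and, for those features, a table of FPKM. The submitters' processing notes name bcl2fastq 2.19, featureCounts and the build hg18 without roles. The aligner, the annotation and the strand setting are not given in the sources used here. Positions and gene types were joined by Ensembl identifier from GENCODE 29 (GRCh38), and 60295 identifiers had a symbol. Identifiers newer than that build are present, so no coordinate was read from the files. For 87.2% of 19775 features with at least 50 counts in a library, the length implied by the deposited counts and FPKM was within 5% of a constant multiple of the summed exon length.

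With edgeR 4.0.16 (R 4.3.3), counts were filtered (filterByExpr), TMM-scaled and tested by quasi-likelihood (glmQLFit, glmQLFTest), 3 against 3 with no covariate, and adjusted over all 27514 features. Standard errors are the absolute log2 fold change over the root of the F statistic, and 95% intervals use its t distribution. The model was tested on simulated counts with 200 changed genes, balanced between higher and lower. Far fewer genes changed there than were called here, so that test does not probe how scaling affects these data. No library was a copy of another: 49% to 67.4% of abundant genes differed beyond sampling noise between replicates. Depth was 38624292 to 46318311 counts, and members held 123 to 3012 counts per library. Precision is limited by the 3 replicates, and the part of counting noise was not separated. Permutation tests used scipy 1.17.1. Alternatives were DESeq2 1.42.0 and its size factors, library size only, no filter, a minimum of 10 counts throughout, a block for the replicate number, omission of single libraries, and limma 3.58.1 on log2 FPKM with a pseudocount of 1 or 0.1. The FPKM fits kept features that reached 0.5 FPKM in 3 libraries, and the pseudocount of 1 was also run unfiltered.

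The members and lists were chosen with earlier results of these data known. All 10 members and MAPK13 were named. From each list the genes with the smallest p-values were named, up to 3 in each direction among those called, and the 3 genes most correlated with the member of smallest p in each direction and genes that overlap a member. DUSP1, JUN and the untested GADD45G were named after their values were seen. The result of 1 gene that the rule selects is not reported here. Promoter windows were from RefSeq and matched all 10 members. Protein sequences were not used here.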

Additional observations from a re-analysis of the deposited data

How the results depend on the processing

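MAP2K3, MAPK11 and MAPK12 kept their direction and their call in all 15 alternatives. When each of the 6 libraries was omitted in turn, 2 to 3 members were higher and 1 to 2 lower, and 25 to 32 list genes were higher and 9 to 13 lower. In these fits log2 fold changes were 0.21 to 0.62 for MAPK8, −0.26 to 0.030 for MAPK9 (the positive value without Sev replicate 2), −1.03 to −0.59 for MAPK10, −0.93 to −0.45 for MAP2K6 and 0.32 to 0.55 for MAP2K7. DESeq2's test called MAP2K6 (−0.69), and library size only did so too (−0.82). Library size only and the 3 FPKM settings removed the call of MAP2K7, with 0.30 for library size, 0.28 with a pseudocount of 0.1 and 0.25 for both settings with a pseudocount of 1. They also turned MAP2K4 to −0.0031, −0.0062 and −0.0054, without a call on either side. With FPKM, 1 member was lower, and 20 list genes were higher with the filter at both pseudocounts and 19 without it. MAPK10 and MAP2K6 were under the FPKM filter and so were not tested in the filtered fits. Without the filter their log2 values of −0.082 and −0.24 were not called. With library size only, 21 list genes were lower. The cause of these shifts was not tested beyond the median shift of −0.14 that library size only gave to all features.

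The sample titles number the replicates without stating a pairing. The deviations of same-numbered libraries correlated between −0.0072 and 0.027, and not every library correlated best with its own number. These values show little shared deviation, but cannot tell whether same-numbered libraries were handled together. With the replicate number as a block, 5228 features were higher and 5021 lower, 1 member was lower and 4 were higher. MAPK8 was then called (0.41) and MAPK10 was not (−0.80). MAP4K2 (−0.40) and RPS6KA4 (0.26) also lost their calls.

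In counts without a length correction, the share of MAPK11 in p38 changed by 6.81 percentage points in place of 13.3, that of MAPK14 by −0.29 in place of −7.01, and that of MAPK10 in JNK by −3.22 in place of −0.72. The share of MAPK9 changed by −5.84 in place of −7.52, and its groups then overlapped (exact permutation p = 0.3). Without a library, the changes in share were 6.30 to 11.1 points for MAPK8, −10.6 to −5.37 for MAPK9, −0.93 to −0.56 for MAPK10, 10.9 to 15.6 for MAPK11, −9.84 to −4.28 for MAPK12 and −10.8 to −1.07 for MAPK14. For the 30 list genes selected by rule, 398 of 438 refits kept direction and side, 40 lost the call and 0 reversed. Genes with few counts, such as MAPK15, PTPN7 and MAPK4, are limited by depth as well as by the 3 replicates.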
